A study of Mus musculus with 6 samples.

Results

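The genes examined encode main ion carriers and channels of the gut epithelium and were chosen by their symbols in the deposited gene table: Cftr, Slc12a2, Slc9a2, Slc9a3, Slc26a3, Slc26a6, Slc4a4, Kcnq1 and Kcne3. They are 9 of 46078 genes in the table, and all 9 passed the filter on low counts and were tested, a second record named Slc26a6 having no count. RNA was sequenced from epithelial cells of the proximal small intestine of untreated C57BL/6JRj mice, with 3 libraries from young animals aged 2 to 3 months and 3 from aged animals aged 20 to 22 months. The cells were released with EDTA and trypsin and sorted as EpCam+ and CD45-, which removes leukocytes and keeps all epithelial cell types together, per the labels' protocols. The labels do not tie a library to an animal, and the libraries were read as 1 per mouse because the design names 3 mice of each age, so p-values measure the spread between these samples. The sex of the mice is not given in the labels. Replicate numbers used here follow the order of the samples within each age and are not given in the labels.

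The gut secretes fluid by moving chloride into the lumen, and sodium and water follow. Chloride enters a crypt cell across its basolateral membrane with sodium and potassium and leaves through an apical channel, while basolateral potassium channels keep the cell electrically negative and so keep chloride moving. Fluid is taken up when apical sodium-proton exchange runs beside chloride-bicarbonate exchange, mainly in villus cells, and bicarbonate imported on the basolateral side serves the alkaline secretion of the duodenum.

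Between young and aged epithelium 0 of the 9 genes changed by edgeR's quasi-likelihood test with Benjamini-Hochberg adjustment over 14923 genes. Their adjusted p lay between 0.683 and 0.999, 0 of 9 had an unadjusted p below 0.05, and DESeq2 and limma-voom called 0 as well. Over all genes tested, 1.41% were called, 0.623% as higher and 0.784% as lower in aged libraries, and 9.23% had an unadjusted p below 0.05. The values of young and aged libraries overlapped in all 9 genes, whereas the groups did not overlap in 13.8% of all genes. The log2 fold changes ran from -0.21 for Slc12a2 to 0.14 for Slc4a4, 7 of 9 were below 0, and their median was -0.10, against a median of 0.0065 and 48.2% below 0 over all genes. The 95% intervals of the 9 changes lay between a fold of 0.723 (Slc12a2) and 1.38 (Slc9a3), so a change of 2-fold either way was outside each interval. In bulk RNA, fewer cells of a type and less RNA per cell cannot be told apart.

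Libraries held between 41479573 and 58989166 counts, so each of the 9 genes rested on at least 2411 counts in every library. Levels are given in CPM, read counts scaled to a common library size with TMM factors, as mean ± SD of 3 libraries where a group is summarised. The gene of the sorted surface protein, Epcam, was measured at 1656 ± 18.3 CPM (young) against 1510.4 ± 11.3 CPM (aged), and Ptprc, which encodes CD45, at 0.235 ± 0.0611 and 0.230 ± 0.0403 CPM. The log2 fold change of Epcam was -0.13 ± 0.07 (SE, edgeR adjusted p = 0.653), so Epcam was not called. Of 19 leukocyte markers 7 were tested, and 2 rose with age, Itgam (adjusted p = 0.00726) and Itgae (adjusted p = 0.0129, both by edgeR's quasi-likelihood test). Of the 7 tested, 5 had a log2 fold change above 0 and 2 below 0, with Ptprc at -0.06. The summed level of the 19 was 15.7 to 16.7 CPM in young and 27.7 to 29.2 CPM in aged libraries, with Cpa3 and S100a8 at 0 counts. Of 8 goblet markers Tff3 fell (0.630-fold, adjusted p = 0.0498), and the summed level was 17763 to 27023 CPM in young and 15019 to 16665 CPM in aged libraries. Of 9 Paneth markers Defa3, Defa26 and Defa17 fell (adjusted p = 0.00656, 0.0220 and 0.0373), and the summed level was 8509 to 15722 CPM in young and 6416 to 6885 CPM in aged libraries. Of 10 enteroendocrine markers Gip and Sst fell (adjusted p = 0.0285 and 0.0433), 3 of the 10 had a log2 fold change above 0, and the summed level was 2229 to 2926 CPM in young and 2514 to 2806 CPM in aged libraries. Of these 8 calls, those of Itgam and Defa3 held in all 14 alternatives (other tools, factors, filters, a non-robust fit and leaving out each library). Itgae was called in 12 of 14, the exceptions being the fits that left out young replicate 3 (adjusted p = 0.0547) and aged replicate 1 (0.0749). Tff3 was called in 5 of 14, and its call was lost without any 1 library other than young replicate 1 (adjusted p between 0.0694 and 0.171) and with limma-voom, RLE factors, 1 CPM in 3 libraries or the non-robust fit (between 0.0501 and 0.0686). Defa26 and Defa17 were called in 9 of 14 each, and both calls were lost with no filter (adjusted p = 0.0704 and 0.218) and without young replicate 1 or any 1 aged library (up to 0.118 and 0.142). Gip was called in 10 of 14, its call being lost without young replicate 1 or 3 or aged replicate 1 or 2 (adjusted p up to 0.125). Sst was called in 7 of 14, its call being lost without any 1 library other than aged replicate 3 (adjusted p up to 0.174), with no filter (0.0965) and with 1 CPM in 3 libraries (0.0547). The part of these cell types in the values of the 9 genes was not tested.

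**Figure D1:**
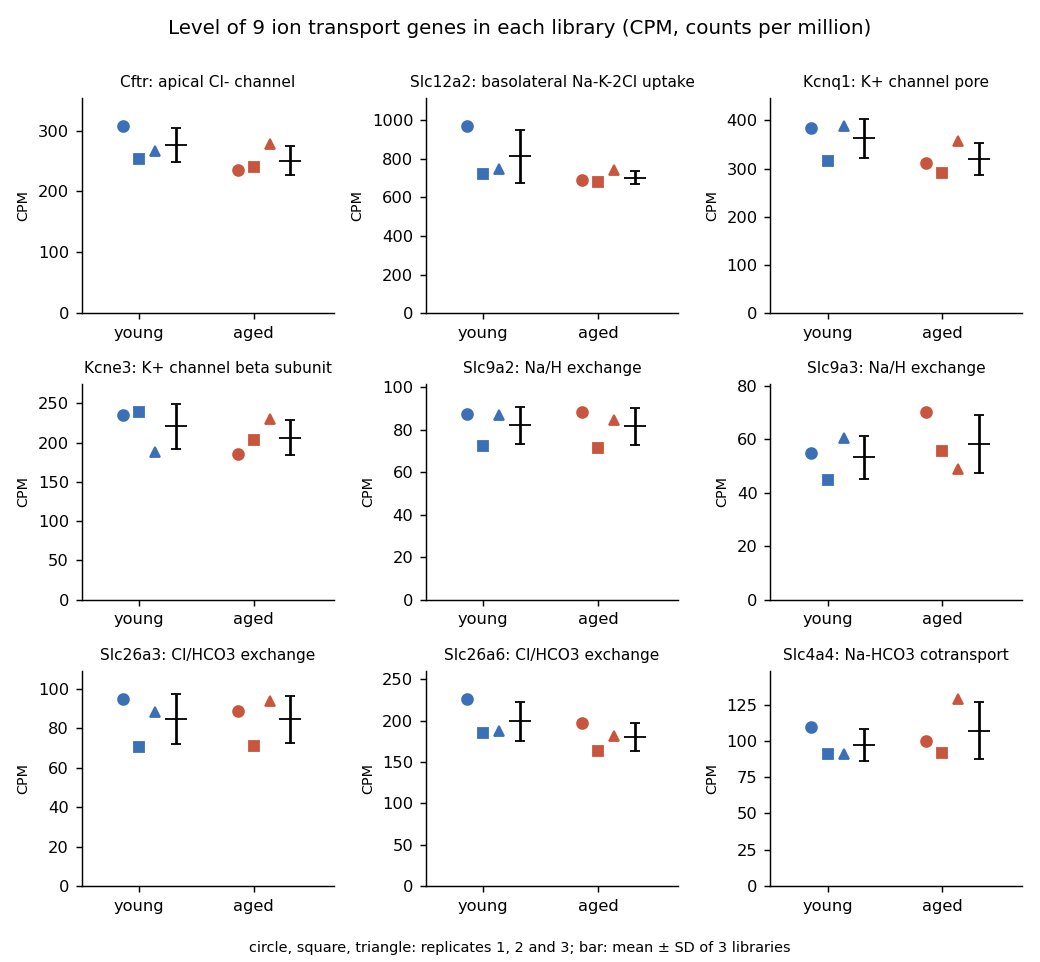
Level of each of the 9 genes in every library, in CPM on axes that start at 0, for 3 young (blue) and 3 aged (red) libraries, with the mean ± SD of each group in black. Young and aged points overlap in every panel, and young replicate 1 (circle) is the highest of the 6 for Cftr, Slc12a2, Slc26a3 and Slc26a6.

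Promoter windows of 3 of the genes are shown, those of the chloride channel and of the pair of apical anion exchangers, because they differ in base composition and motifs. They run from 250 bases before to 50 bases after a transcription start of RefSeq (GRCm38.p6, plus strand, 5′ to 3′). Windows were listed for 6 of the 9 genes. The start used for Cftr is also the start of the gene in GENCODE M21. That of Slc26a6 lies 760 bases inside the GENCODE gene, at the start of 1 of its 10 transcripts. That of Slc26a3 lies 47348 bases inside the GENCODE gene, at the start of 2 of its 7 transcripts, of which 1 is marked as principal, so this window is not at the outermost start. Capitals mark matches to 3 short promoter motifs, each sought on both strands with overlapping matches counted. The TATA box was searched as TATAAA. The box named CCAAT was searched by exactly those letters. For the GC box the letters sought were GGGCGG.
Cftr, chr6:18170437-18170736: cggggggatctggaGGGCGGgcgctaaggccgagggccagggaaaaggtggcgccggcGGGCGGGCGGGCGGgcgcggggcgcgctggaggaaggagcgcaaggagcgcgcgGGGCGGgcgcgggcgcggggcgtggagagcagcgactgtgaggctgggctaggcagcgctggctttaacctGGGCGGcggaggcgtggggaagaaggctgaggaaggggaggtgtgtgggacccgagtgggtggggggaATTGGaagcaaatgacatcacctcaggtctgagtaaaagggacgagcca
Slc26a6, chr9:108853793-108854092: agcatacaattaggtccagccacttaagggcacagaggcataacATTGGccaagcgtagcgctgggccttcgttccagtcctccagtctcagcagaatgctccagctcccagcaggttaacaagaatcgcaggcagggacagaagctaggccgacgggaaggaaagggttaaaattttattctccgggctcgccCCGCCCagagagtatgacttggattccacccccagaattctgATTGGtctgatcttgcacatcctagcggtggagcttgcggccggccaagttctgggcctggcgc
Slc26a3, chr12:31437969-31438268: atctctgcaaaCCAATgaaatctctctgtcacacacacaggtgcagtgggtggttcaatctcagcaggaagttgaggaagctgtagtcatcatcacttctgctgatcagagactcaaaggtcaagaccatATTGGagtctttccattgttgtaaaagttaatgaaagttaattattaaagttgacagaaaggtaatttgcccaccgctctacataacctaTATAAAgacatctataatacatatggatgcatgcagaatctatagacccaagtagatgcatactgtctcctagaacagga
The Cftr window was 71.3% G or C and held 6 GC boxes, some of them overlapping, 1 CCAAT box and no TATA box. The Slc26a6 window was 56.0% G or C, with 1 GC box, 2 CCAAT boxes and no TATA box. The Slc26a3 window was 39.3% G or C and held 1 TATA box and 2 CCAAT boxes but no GC box. Among 32851 windows of this length in RefSeq, the median was 52.7% G or C, and 35.7% held a GC box, 37.4% a CCAAT box and 13.6% a TATA box. Neither the exact letters TGACGTCA of the cAMP response element (1.79% of all windows) nor the GATA motif AGATAA (11.2%) occurred in any of the 3 windows. Variants that differ from these letters were not sought, so such forms of either element may be present. These matches describe letters in a window and were not tested as binding sites.

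Cftr (ENSMUSG00000041301, chromosome 6, 18170687 to 18322768, GRCm38) encodes the apical chloride and bicarbonate channel that cyclic AMP opens. It stood at 308, 254 and 267 CPM in the young libraries and at 235, 239.8 and 277 CPM in the aged ones. The highest aged library lay above the lower 2 young ones, so the groups overlapped. The means were 276 ± 28.2 and 251 ± 23.3 CPM, a log2 fold change of -0.14 ± 0.10 (SE; 95% interval -0.36 to 0.08, edgeR adjusted p = 0.798).

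Slc12a2 (ENSMUSG00000024597, chromosome 18, 57878678 to 57946821) encodes NKCC1, the basolateral cotransporter that loads crypt cells with chloride. Its young libraries held 970.1, 721 and 745 CPM and its aged libraries 689, 678 and 739 CPM. Young replicate 1 stood apart from the other 5 libraries, which lay between 678 and 745 CPM. The means were 812 ± 137 and 702 ± 32.5 CPM, and the log2 fold change of -0.21 ± 0.11 had an interval of -0.47 to 0.05 (edgeR adjusted p = 0.683). Without young replicate 1 the log2 fold change was -0.06.

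Kcnq1 (ENSMUSG00000009545, chromosome 7, 143106362 to 143427042) encodes the pore of a basolateral potassium channel. It was measured at 384, 317 and 389 CPM in young and at 311, 292 and 358 CPM in aged libraries. The lowest 2 libraries were aged, but young replicate 2 was below aged replicate 3. Its log2 fold change was -0.18 ± 0.11 (SE; 95% interval -0.42 to 0.06, edgeR adjusted p = 0.716).

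Kcne3 (ENSMUSG00000035165, chromosome 7, 100176502 to 100184869) encodes the small subunit that holds the Kcnq1 pore open in gut epithelium. It stood at 235, 239 and 188 CPM in young and at 186, 203 and 229.7 CPM in aged libraries, so each group had both high and low values. The log2 fold change was -0.10 ± 0.11 (SE; 95% interval -0.35 to 0.16, edgeR adjusted p = 0.887). No counts of Kcne1 or Kcne2, other subunits of the same family, were found in any library, which allows up to 0.0720 CPM in the shallowest one (3 counts; counting error only), and Kcne4 had 3 counts over all 6.

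Slc9a2 (ENSMUSG00000026062, chromosome 1, 40680574 to 40769273) and Slc9a3 (ENSMUSG00000036123, chromosome 13, 74121457 to 74169442) encode NHE2 and NHE3, the apical exchangers that take up sodium against protons. Slc9a2 stood at 87.5, 72.1 and 87.0 CPM in young and at 88.2, 71.6 and 84.7 CPM in aged libraries, with 1 lower library in each group. Its log2 fold change was -0.01 ± 0.11 (SE; 95% interval -0.25 to 0.23, edgeR adjusted p = 0.991). Slc9a3 was the most variable of the 9 genes, with an SD of 0.23 in log2 CPM over the 6 libraries, against 0.14 for Slc9a2. Its values were 54.8, 44.6 and 60.6 CPM in young and 70.2, 55.5 and 48.9 CPM in aged libraries. The highest library was aged and the lowest young, and the others were mixed (log2 fold change 0.13 ± 0.15, SE; 95% interval -0.22 to 0.47; edgeR adjusted p = 0.891).

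Slc26a3 (ENSMUSG00000001225, chromosome 12, 31390871 to 31473917) encodes the apical chloride-bicarbonate exchanger whose loss causes congenital chloride diarrhoea in humans. It stood at 95.1, 70.8 and 88.4 CPM in young and at 88.6, 71.1 and 94.2 CPM in aged libraries, 2 sets of values that nearly coincide. The means were 84.8 ± 12.6 and 84.6 ± 12.1 CPM, and the log2 fold change of -0.0013 ± 0.13 had an interval of -0.30 to 0.30 (edgeR adjusted p = 0.999).

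Slc26a6 (ENSMUSG00000023259, chromosome 9, 108853283 to 108913049) encodes another apical anion exchanger, which also moves oxalate. It was at 227, 185 and 187 CPM in young and at 197, 163 and 181 CPM in aged libraries. Young replicate 1 was highest and aged replicate 2 lowest, and the other 4 lay between 181 and 197 CPM. The log2 fold change was -0.14 ± 0.10 (SE; 95% interval -0.38 to 0.09, edgeR adjusted p = 0.803). A second record under this symbol, ENSMUSG00000107138, had 0 counts in all 6 libraries and was not tested.

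Slc4a4 (ENSMUSG00000060961, chromosome 5, 88886818 to 89239653) encodes NBCe1, a basolateral cotransporter of sodium and bicarbonate. Its young libraries held 109.6, 91.2 and 90.7 CPM and its aged libraries 99.9, 91.7 and 129 CPM. Aged replicate 3 was the highest of the 6 and the rest were mixed. Its log2 fold change was 0.14 ± 0.13 (SE; 95% interval -0.16 to 0.44, edgeR adjusted p = 0.857), and -0.02 without aged replicate 3.

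**Figure D2:**
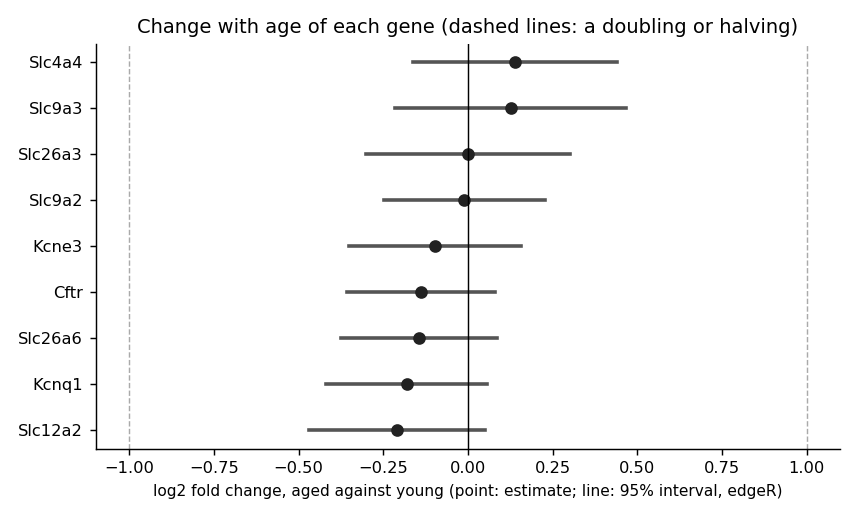
Log2 fold change of each gene, aged against young, with its 95% interval from edgeR's fit. Every interval includes 0 and stays inside the dashed lines that mark a change of 2-fold; the estimates run from -0.21 (Slc12a2) to 0.14 (Slc4a4).

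On a scale per length, in CPM per kilobase of exon averaged over the 6 libraries, Kcne3 was the most abundant of the 9 transcripts (120.03 ± 13.6, SD), followed by Kcnq1 (83.5 ± 9.93), Slc12a2 (69.3 ± 9.86), Slc26a6 (35.1 ± 3.90), Cftr (33.9 ± 3.48), Slc26a3 (13.3 ± 1.73), Slc9a2 (11.7 ± 1.12), Slc9a3 (10.1 ± 1.63) and Slc4a4 (9.43 ± 1.40). The first 3 held the same rank in all 6 libraries, and the range of Kcne3 did not overlap that of Kcnq1. Slc26a6 was above Cftr in 4 libraries and below it in 2. Slc9a3 was above Slc4a4 in 3 of 6, and the ranges of the last 4 genes overlapped from each to the next. Among all tested genes on this scale, Kcne3 stood at percentile 97.7, Slc12a2 at 95.4, Cftr at 88.8 and Slc4a4 at 63.6. This order depends on the annotated exon lengths.

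The ratio of Slc26a3 to Slc26a6 per kilobase was 0.361 ± 0.0379 in young and 0.398 ± 0.0381 in aged libraries (SD, n = 3 each), so the latter exchanger had more transcript in every library. Slc9a2 to Slc9a3 stood at 1.22 ± 0.0776 and 1.12 ± 0.209, with aged replicate 1 alone below 1 at 0.991. Kcne3 to Kcnq1 stood at 1.42 ± 0.312 and 1.48 ± 0.116, and Cftr to Slc12a2 at 0.482 ± 0.0309 and 0.502 ± 0.0247. Young and aged values overlapped in each of these 4 ratios.

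**Figure D3:**
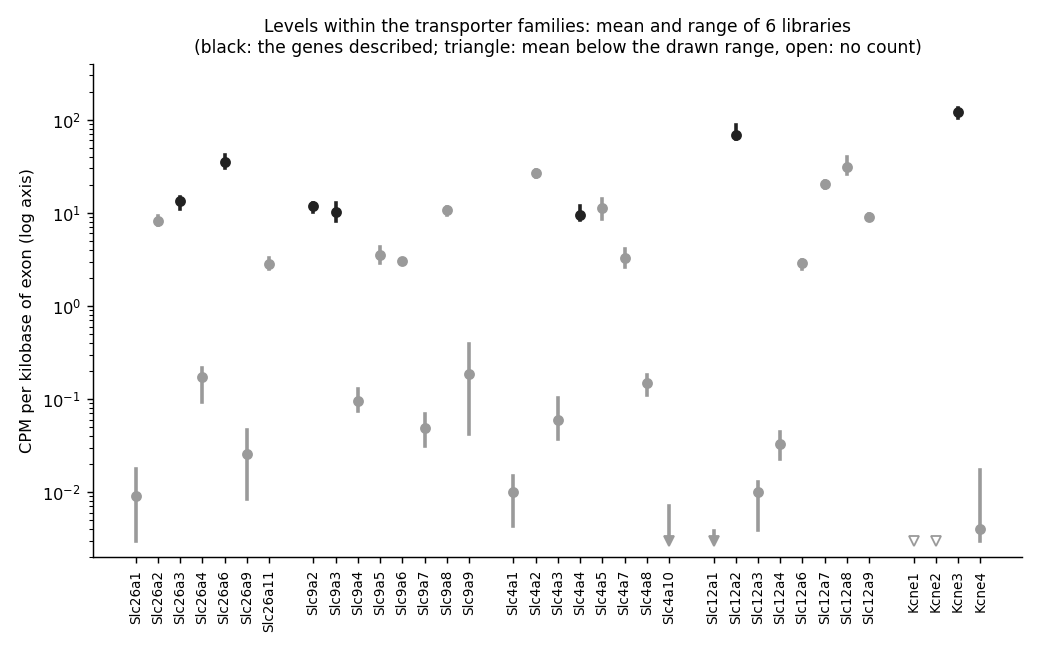
Mean level (point) and range (line) over 6 libraries of genes from 5 transporter families, in CPM per kilobase of exon on a log axis, with the genes described in black. Kcne3 at 120.03 is the only Kcne gene with a mean above 0.01, while the Slc9, Slc4 and Slc12 families each have several genes above 1; lines that reach 0 stop at the lowest value drawn.

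Within their families these genes had different standing. Slc12a2 was the most abundant of 8 cation chloride cotransporter genes, with 52.0% of their summed level per kilobase, and Slc12a1, which encodes the related kidney cotransporter NKCC2, had 2 counts over all libraries. Of the 7 Slc26 genes listed, Slc26a6 made up 58.9% and Slc26a3 22.3%, and Slc26a9, an anion transporter of the stomach, had 38 counts in all. Among the sodium-proton exchangers Slc9a2 had 11.7 CPM per kilobase, the Golgi exchanger Slc9a8 had 10.7 and Slc9a3 had 10.1. In the Slc4 family the chloride-bicarbonate exchanger Slc4a2 led with 26.5 CPM per kilobase, above Slc4a5 with 11.3 and Slc4a4 with 9.43.

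Young replicate 1 held the highest value of 4 of the 9 genes and aged replicate 2 the lowest of 4. The highest values of the other 5 were spread over 4 libraries, aged replicate 1 for Slc9a2 and Slc9a3, aged replicate 3 for Slc4a4, young replicate 2 for Kcne3 and young replicate 3 for Kcnq1. Profiles were compared by the root mean square difference of log2 CPM, each gene centred on its own mean, over the 6 libraries. The closest pair was Slc9a2 with Slc26a3 (0.0680), both low in young replicate 2 and aged replicate 2, and next came Cftr with Slc12a2 (0.0742), both highest in young replicate 1. The farthest pair was Slc9a3 with Kcne3 (0.348), and Slc9a3 was at least 0.171 from each of the other 8. Among all 113 tested genes of ion and fluid transport, the nearest to Cftr was Chp1 (0.0543), to Kcnq1 also Chp1 (0.0584), to Slc9a2 Prss8 (0.0460), to Slc9a3 Slc9a3r1 (0.144), to Slc26a6 Slc12a2 (0.0923), to Slc4a4 Car13 (0.102) and to Kcne3 Prkg2 (0.0961). Chp1 encodes a cofactor of sodium-proton exchangers, Prss8 a membrane protease, Car13 a carbonic anhydrase and Prkg2 a cyclic GMP-dependent kinase. These are likenesses over 6 libraries that also share depth and cell make-up, and no test was made of them.

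**Figure D4:**
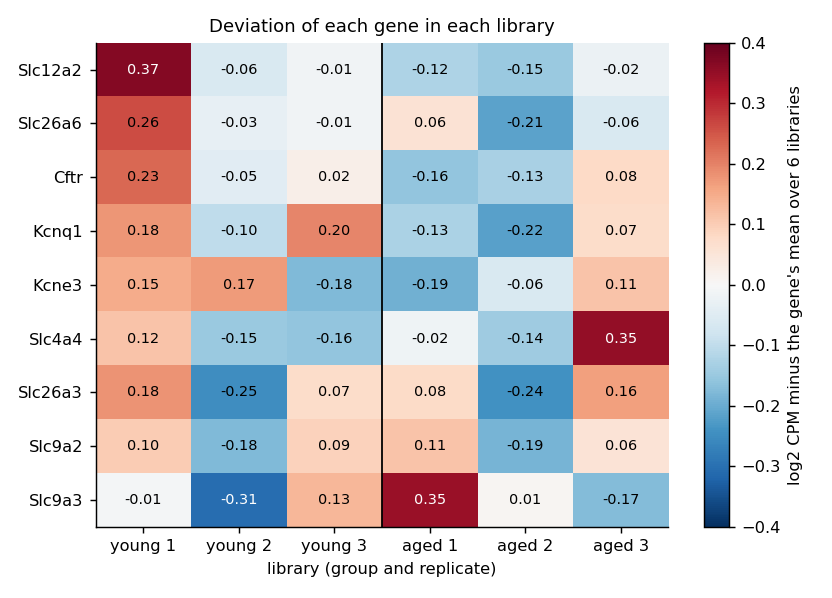
Deviation of each gene from its own mean over the 6 libraries, in log2 CPM (colour and printed value), with a line between young and aged libraries. Slc12a2 is 0.37 above its mean in young replicate 1; Slc26a3 and Slc9a2 are low in young replicate 2 (-0.25 and -0.18) and aged replicate 2 (-0.24 and -0.19).

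Markers of cell position were measured in the same libraries. The summed level of 13 crypt stem and progenitor markers was 6093 to 7066 CPM in young and 6154 to 6930 CPM in aged libraries (6929.5 in the highest), and that of 14 villus enterocyte markers 4491 to 6127 and 3165 to 5022 CPM. No member of either list was called. By edgeR 4 of the 14 villus markers and 0 of the 13 crypt markers had an unadjusted p below 0.05, against 9.23% of all genes. The groups did not overlap in 4 villus and 0 crypt markers, against 13.8% of all genes. The median log2 fold change was -0.29 for the villus list, with 10 below 0 and 4 above, and 0.02 for the crypt list. Young replicate 1 was highest of the 6 in both sums, and aged replicate 2 was lowest in the villus sum. Lgr5, a crypt base stem cell marker, stood at 59.7 ± 12.6 and 51.1 ± 2.74 CPM (edgeR adjusted p = 0.770; 0.0474 without young replicate 2), and Alpi, the intestinal alkaline phosphatase of villus cells, at 646 ± 123 and 566 ± 92.7 CPM (edgeR adjusted p = 0.827). The mitochondrial share of counts was highest in young replicate 1 as well, at 3.69%, with 2.07% and 1.48% in young replicates 2 and 3. In aged replicates 1, 2 and 3 it was 2.88%, 2.04% and 1.54%, so it fell from replicate 1 to 3 at each age. Leaving out young replicate 1 brought the log2 fold changes of Cftr to -0.05, of Slc26a6 to -0.04 and of Slc12a2 to -0.06. Kcnq1 moved from -0.18 to -0.14 and Kcne3 from -0.10 to -0.05. Slc9a2 and Slc26a3 then stood at 0.04 and 0.09, against -0.01 and -0.0013 with all 6 libraries. Slc9a3 and Slc4a4 moved away from 0, from 0.13 to 0.15 and from 0.14 to 0.23. The part of cell position or RNA make-up in these values was not tested.

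Beyond the 9 genes, 144 further genes of ion and fluid transport were listed by role, of which 104 were tested and 40 were too low or had no row in the table. Of these, 1 rose with age, 0 fell and 103 did not pass the test (edgeR, adjusted over all 14923 genes; 14 had an unadjusted p below 0.05). Their median log2 fold change was -0.03, and the groups did not overlap in 17 of 104, against 13.8% of all genes. Of 10 lists, that of the 9 genes included, the sign of the median changed in 5 on leaving out a single library. The filter on low counts was applied anew in each such fit, so a list could then hold fewer genes. The lists by role also hold the 9 genes, so the numbers tested and medians given below for each list cover them too. No count was found in any library for Car14, Kcne1, Kcne2, Scnn1b, Scnn1g, Ptger2 or Sctr.

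The gene that rose was Car6 (chromosome 4, 150187015 to 150201332), which encodes a secreted carbonic anhydrase. It had 8, 9 and 8 counts in young and 28, 25 and 27 counts in aged libraries, or 0.175 ± 0.0207 and 0.540 ± 0.0555 CPM, so it was scarce in both groups, which did not overlap. Its log2 fold change was 1.62 ± 0.32 (SE, edgeR adjusted p = 0.0498), and the call was lost on leaving out any 1 library (adjusted p between 0.0789 and 0.202) and with DESeq2, limma-voom or other scaling factors (adjusted p between 0.0503 and 0.0765). The median of the 14 tested bicarbonate cotransporters and carbonic anhydrases was 0.02.

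No gene was called in the other lists, for which the most abundant genes per kilobase are given beside the 9, up to 2 a list. Among 16 tested anion channels and exchangers the median log2 fold change was 0.02. Clca4b, of the family once described as calcium-activated chloride channels, was at 265 ± 14.6 CPM (young) and 319 ± 41.6 CPM (aged) (log2 fold change 0.27 ± 0.10, edgeR adjusted p = 0.393). Slc4a2, the basolateral chloride-bicarbonate exchanger, had a log2 fold change of 0.10 ± 0.08 (SE).

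Among 15 sodium-proton exchangers and adaptors the median was 0.04. Slc9a3r1, which encodes the scaffold NHERF1 that anchors apical transporters, stood at 255 ± 19.7 and 269.9 ± 27.2 CPM (edgeR adjusted p = 0.887). Ezr, which encodes ezrin and ties that scaffold to actin, stood at 411 ± 8.48 and 424 ± 23.4 CPM (edgeR adjusted p = 0.930).

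Among 10 cation chloride cotransporters and their kinases the median was -0.01, with Slc12a8 at -0.30 ± 0.11 (SE, edgeR adjusted p = 0.356) and the potassium chloride cotransporter gene Slc12a7 at 0.09 ± 0.08. Among 12 potassium channel genes it was -0.09. Kcnn4, the calcium-activated basolateral channel, stood at 169 ± 5.27 and 192 ± 2.43 CPM, with all 3 aged libraries above the 3 young ones (log2 fold change 0.18 ± 0.06, edgeR adjusted p = 0.322). Kcnk1, a background potassium channel, had a log2 fold change of 0.03 ± 0.13 (SE).

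The sodium pump drives all of these carriers. Atp1b1, which encodes a subunit of it, stood at 1128, 1049.6 and 1065 CPM in young and at 956, 879 and 1055 CPM in aged libraries, so only aged replicate 3 reached the young range. Its log2 fold change was -0.17 ± 0.09 (SE, edgeR adjusted p = 0.653). The median of the 6 tested pump and FXYD genes was -0.12.

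Of the epithelial sodium channel subunits listed, Scnn1a (alpha) was detected at 39.3 ± 5.11 and 42.3 ± 3.83 CPM, while Scnn1b and Scnn1g had no count. Tmprss4 and Prss8, membrane proteases known to cleave this channel, had log2 fold changes of 0.17 ± 0.07 and -0.02 ± 0.09 (SE, edgeR adjusted p = 0.465 and 0.983), and the median of the 7 tested genes was -0.02. Of 7 tested aquaporins, which carry water, the median was -0.26. It lay between -0.23 and -0.02 on leaving out 1 library, nearest 0 without young replicate 1, in fits that were filtered anew. With the filter of 1 CPM in 3 libraries the median was -0.04, so it also depended on which scarce aquaporins were kept. Aqp1 stood at 357, 283 and 374 CPM in young and at 254, 233 and 342 CPM in aged libraries, 2 overlapping sets (edgeR adjusted p = 0.671), and Aqp4 had a log2 fold change of -0.03 ± 0.10 (SE).

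Among 26 tested genes of guanylin, cyclic nucleotide and calcium signalling the median was -0.14, or -0.05 without young replicate 1. Guca2b, which encodes uroguanylin, a peptide that opens Cftr through guanylate cyclase C, stood at 110.7, 96.2 and 83.0 CPM in young and at 82.6, 57.0 and 75.4 CPM in aged libraries. All young values lay above the aged ones, the nearest by less than 1 CPM, and the log2 fold change of -0.43 ± 0.15 did not pass the test (SE, edgeR adjusted p = 0.328). Guca2a, which encodes guanylin, stood at 128 ± 28.2 and 109 ± 15.5 CPM (edgeR adjusted p = 0.797).

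**Figure D5:**
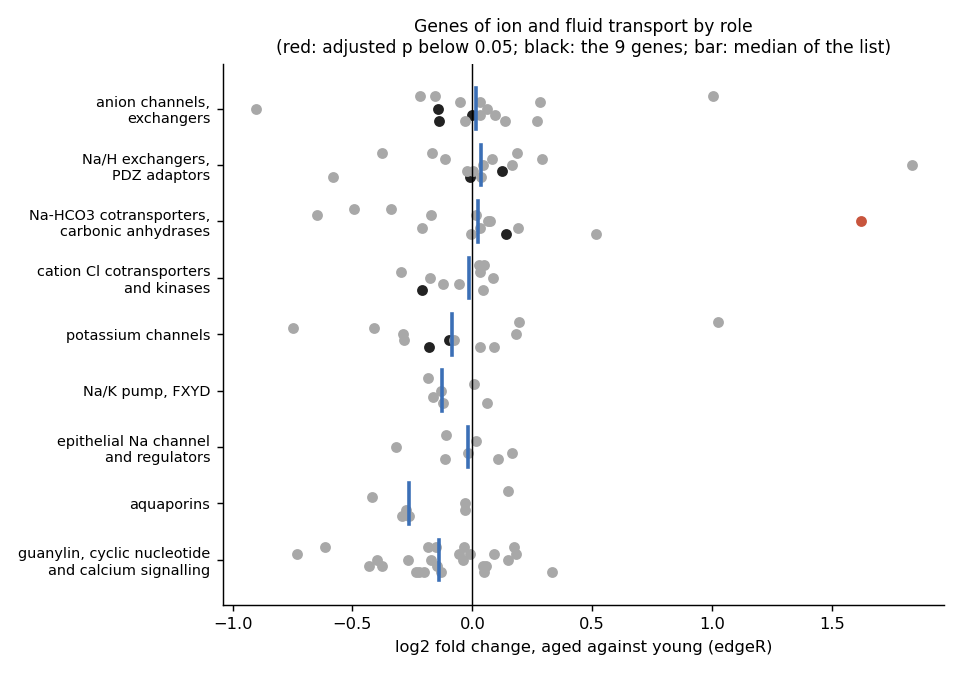
Log2 fold change (aged against young) of every tested gene in 9 lists of ion and fluid transport, with the list median as a blue bar, the 9 genes in black and the 1 called gene, Car6, in red. The medians lie between -0.26 (aquaporins) and 0.04 (sodium-proton exchangers and adaptors).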

How the data were processed

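The authors deposited raw counts per gene for 46078 Ensembl genes in 6 libraries, 1 column each, not normalised, as whole numbers with unequal totals. GRCm38 and the tools Trim Galore 0.6.4, cutadapt 2.5, STAR, HISAT2 2.1.0, SAMtools 1.9, featureCounts 1.6.4 and DESeq2 1.28.1 are listed in the submitters' processing notes among others, without roles. The kit was stranded, per the labels' protocols, but for the counting neither strand setting nor annotation release is stated (not given in the sources used here). Antisense genes overlap exons of Cftr, Kcnq1 and Kcne3 by 129, 121 and 9 bases, and the first 2 of them (Gm15592 and Kcnq1ot1) had 2 and 3 counts over all libraries.

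Genes were kept by filterByExpr of edgeR 4.0.16 (minimum count 10), scaled with TMM and tested with the robust quasi-likelihood test, age being the only term (R 4.3.3). P-values were adjusted by Benjamini-Hochberg over all genes tested and called at 0.05. The standard error is the log2 fold change over the square root of F, and intervals use the degrees of freedom of that fit. Log2 CPM used a prior count of 2. Exon lengths and positions are from GENCODE M21, where 45229 gene IDs were found. The scripts were tested on simulated counts. No 2 libraries of a group agreed within sampling noise (chi-square per gene at least 26.9). DESeq2 1.42.0, limma-voom (limma 3.58.1), other factors and filters, a non-robust fit and leaving out each library were tried as alternatives.

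The 9 genes, the lists and the motifs were chosen with earlier results of these data known. Named genes are the 9, from each other list up to 4 called genes or else the 2 most abundant per kilobase (of the pump list 1 is not reported here), the nearest profile to each of the 9, and, from marker lists, called genes up to 4 with Epcam, Ptprc, Lgr5 and Alpi. Relatives named for their level in a family, Scnn1a and the genes with no count fall outside this rule and were picked after their values were seen.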

Additional observations from a re-analysis of the deposited data

How the results depend on the processing

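None of the 9 genes was called in any of the 14 alternatives. Changes near 0 varied in sign: Slc26a3 was 0.0048 with limma-voom, 0.0035 with library totals and 0.0023 without a filter. Leaving out 1 library moved it between -0.12 and 0.10, Slc9a2 between -0.10 and 0.068, Slc9a3 between -0.030 and 0.23 and Slc4a4 between -0.024 and 0.23. The same fits moved Ezr between -0.0010 and 0.068, Kcnk1 between -0.066 and 0.19, Prss8 between -0.10 and 0.029, Aqp4 between -0.13 and 0.062 and Ptprc between -0.24 and 0.12. Cftr, Slc12a2, Slc26a6, Kcnq1 and Kcne3 stayed below 0 in the 14 alternatives.

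Over all genes 93 were called higher and 117 lower, or 206 and 276 with DESeq2, 168 and 245 without a filter, and 67 lower with 1 CPM in 3 libraries. Without 1 library these counts ran from 35 to 135 and from 30 to 135. Of the transport genes 0 were called higher with limma-voom, RLE, upper quartile or no factors, with 1 CPM in 3 libraries and without any 1 library, and 2 without a filter. No transport gene was called lower in any of the 14.

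With coding length in place of exon length, Slc9a2 to Slc9a3 was 1.64 in young and 1.51 in aged libraries, Slc26a3 to Slc26a6 0.413 and 0.455, Kcne3 to Kcnq1 4.003 and 4.19, and Cftr to Slc12a2 0.280 and 0.291. Levels moved by less than their SD under RLE factors or library totals. No paired analysis was made because the labels name no pairs between the ages. Young and aged samples alternate in the series, and whether libraries of the same replicate number were handled together is not stated. A shared order of processing was not tested. With 3 libraries a group, changes within the stated intervals cannot be told from 0.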

Other observations

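Some transport genes outside the naming rule, picked here after their values were seen, had unadjusted p below 0.05 without passing the adjusted test. Slc9a9, which encodes an endosomal sodium-proton exchanger, had 23, 14 and 27 counts in young and 62, 62 and 125 counts in aged ones (log2 fold change 1.83 ± 0.39, SE; edgeR adjusted p = 0.0643). DESeq2 called it (adjusted p = 0.00159), as did edgeR without a filter (adjusted p = 0.00124). Its level lay between 0.237 and 2.23 CPM. The leukocyte marker sum was higher in aged than in young libraries, at 27.9, 27.7 and 29.2 CPM in aged replicates 1, 2 and 3. Of the 7 leukocyte markers tested, 5 had a log2 fold change above 0 and 2 below 0, with Ptprc at -0.06. The part of other cell types in the level of Slc9a9 was not tested.

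Car12, a membrane-bound carbonic anhydrase, was at 54.0 ± 0.499 CPM (young) and 61.6 ± 0.802 CPM (aged), with no overlap (log2 fold change 0.19 ± 0.07, edgeR adjusted p = 0.320). Car8, a relative without enzyme activity, stood at 28.6 ± 6.08 and 20.3 ± 2.99 CPM (log2 fold change -0.49 ± 0.16, edgeR adjusted p = 0.288), also without overlap.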
